A study of Mus musculus with 8 samples.

Results

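A group of 8 genes of cholesterol handling was followed in mouse bone marrow macrophages exposed to CYR61, the secreted product of Ccn1, which is found in the matrix around cells and is bound by integrins. They were chosen by name from the 32249 genes listed in the count tables, and fall into 2 sets of 4. Abca1, Abcg1, Apoe and Nr1h3 form the LXR-type set, and Hmgcs1, Sqle, Insig1 and Srebf2 form the SREBP-type set. The chosen genes cover efflux, synthesis and its control, and none of them is an uptake receptor; receptors such as Cd36 are given from a wider list. In the CYR61 group, C57Bl/6J marrow (age label 10 weeks, sex label male) was grown in M-CSF, a macrophage growth factor, for 3 days and given 4 µg/mL CYR61 for another 24 h. The control group had the same culture without the protein, and no genetic change is labelled in either group. Each group has 4 libraries made with HIVE, a microwell platform for single-cell RNA-seq. The labels do not say whether libraries came from separate animals, so p-values measure the spread between these libraries, which may be technical.

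Macrophages take in cholesterol with lipoproteins and dying cells and cannot break the sterol ring down, so surplus must leave the cell. When sterols are plentiful, oxysterols bind the nuclear receptor LXR, which raises the transcription of efflux genes. When sterols are scarce, the membrane-bound SREBP factors are cut free and raise the transcription of synthesis genes. The target genes in the LXR-type and SREBP-type sets are therefore textbook readouts of opposite sterol states. Nr1h3 and Srebf2 encode the regulators themselves and are not taken as such readouts.

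Levels are in CPM: the UMIs of a gene, each the tag of a captured RNA molecule, were summed over the cells of a library and divided by its total, on a scale common to all libraries. Of 40000 barcodes, 12848 had no fewer than 300 genes detected and no more than 20% of their UMIs mitochondrial. Of these, 6443 were listed in more than 1 table of the same date stamp, so each barcode was kept only in the table where it had most UMIs, which left 9196 home-library cells. They numbered 1971, 3604, 499 and 1065 in CYR61 libraries 1 to 4 and 1058, 315, 294 and 390 in control libraries 1 to 4. Total UMIs per table ranged over 2105422 to 16318946 in CYR61 libraries and over 1379637 to 5468740 in control libraries. In control library 2, barcodes that had more UMIs in another library took 76.1% of the kept UMIs. All 8 macrophage markers were detected in both groups, and their summed level was 11640 to 16470 CPM in CYR61 libraries and 9424 to 14190 CPM in control libraries. T, NK and erythroid markers summed to at most 1.08 CPM in any library. Neutrophil granule markers were present, at 424 to 1799 CPM with CYR61 and 292 to 1339 CPM in controls, as were megakaryocyte or platelet markers, at 585.9 to 1359 CPM with CYR61 and 371.5 to 875.4 CPM in controls. Against the label male, CYR61 libraries 1 and 2 and control libraries 2 and 3 held 1152 to 1249 CPM of Xist, the RNA of the inactive X chromosome. The other libraries, CYR61 libraries 3 and 4 and control libraries 1 and 4, held Y-linked RNA and at most 1.16 CPM of Xist. Results that touch this split are given within each kind.

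The promoters of the sterol-synthesis genes are shown because SREBP factors bind a sterol response element, usually beside NF-Y and Sp1. RefSeq windows on GRCm38.p6, from 250 bases before to 50 after the start, were listed for 6 of the 8 genes, 9 windows in all because Apoe has 3 starts and Nr1h3 has 2; Abcg1 and Sqle are named only. Both strands were searched for the SRE core TCACNCCAC, the NF-Y box CCAAT, the Sp1 box GGGCGG and the E-box CACGTG. A repeat of GGTCA with 4 bases between its copies and an interferon response motif were searched as well. The repeat was meant as an LXR element but does not have its spacing. Below are the 200 bases from 250 to 51 before the start of Hmgcs1 (chr13:119690101-119690300, plus strand) and of Insig1 (chr5:28071162-28071361, plus strand), with the SRE core and the NF-Y box, read as ATTGG on this strand, in capitals.
Hmgcs1: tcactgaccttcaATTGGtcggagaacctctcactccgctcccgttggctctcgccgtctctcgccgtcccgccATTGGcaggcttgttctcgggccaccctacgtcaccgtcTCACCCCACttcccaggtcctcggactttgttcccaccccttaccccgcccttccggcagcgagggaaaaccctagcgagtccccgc
Insig1: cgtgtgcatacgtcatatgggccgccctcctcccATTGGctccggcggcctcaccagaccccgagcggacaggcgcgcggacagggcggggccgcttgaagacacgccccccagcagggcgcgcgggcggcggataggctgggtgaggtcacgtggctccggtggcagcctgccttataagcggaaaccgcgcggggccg

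The SRE core lay in the window of Hmgcs1 alone among the 9, from base -137 to -129, and 1.24% of all 32817 promoter windows hold it. The NF-Y box lay in the windows of Hmgcs1, Insig1 and Srebf2 and in 37.4% of all windows. The Sp1 box lay in Abca1, Hmgcs1, Insig1 and Srebf2 and in 35.6% of all windows. An E-box lay in Abca1 and Insig1, against 7.15% of all windows. The GGTCA repeat (0.0457% of all windows) and the interferon motif (3.43%) were in none of the 9 windows, and those of Apoe and Nr1h3 held none of the 6 motifs. The absence of the GGTCA repeat says nothing about LXR sites, because its spacing is not that of the LXR element. No match overlapped another motif. A match is a run of letters and not a tested site, and a missing match says only that the letters are not in this window.

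The first question was whether 24 h of CYR61 moved the 8 genes. None passed the test: 0 of 8 had an adjusted p under 0.05 in edgeR's quasi-likelihood test, against 121 of 10422 genes tested (1.16%). None reached an unadjusted p under 0.05, and DESeq2 called none of them either, with 216 genes called overall. The values were higher with CYR61 for Abca1, Abcg1, Apoe and Srebf2 and lower for Nr1h3, Hmgcs1, Sqle and Insig1. All 8 genes passed the filter on low counts.

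Nr1h3 encodes LXR-alpha, the sterol-sensing receptor itself. It measured 52.3, 45.1, 16.5 and 34.5 CPM in CYR61 libraries 1 to 4, against 34.9, 53.5, 67.7 and 32.9 CPM in control libraries 1 to 4. The groups overlapped, with the lowest value in CYR61 library 3, which held only 19 UMIs of the gene. This gave a log2 fold change of -0.26 ± 0.35 (SE, n = 4 libraries each), with a 95% interval of -1.01 to 0.49 (edgeR adjusted p = 0.9999).

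Abca1 encodes the transporter that loads cholesterol and phospholipid onto lipid-poor apolipoprotein A-I. Its levels were 459, 378.3, 188 and 183.2 CPM in CYR61 libraries 1 to 4, against 154.8, 252.2, 292 and 126.6 CPM in control libraries 1 to 4. CYR61 libraries 1 and 2 lay above every control library, while CYR61 libraries 3 and 4 lay below control libraries 2 and 3. Its log2 fold change was 0.59 ± 0.34 (SE), a 1.51-fold higher level with a 95% interval of 0.908-fold to 2.51-fold (edgeR adjusted p = 0.910). It was 0.34 without CYR61 library 1 and 0.86 without control library 3, the ends of its range when each library was left out, and 0.33 with barcodes not limited to their home library, and it passed in none of these.

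Abcg1 encodes the partner transporter that passes cholesterol to mature HDL. Its levels were 348.2, 327.4, 215 and 243.1 CPM in CYR61 libraries 1 to 4 and 244.4, 243.7, 321.7 and 198.4 CPM in control libraries 1 to 4. The groups overlapped, and the log2 fold change was 0.20 ± 0.21 (SE; interval -0.25 to 0.66; edgeR adjusted p = 0.9999).

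Apoe encodes apolipoprotein E, a secreted lipid acceptor that macrophages make in quantity. It measured 3072, 2309, 2934 and 3175 CPM in CYR61 libraries 1 to 4, against 3184, 1840, 1586 and 3164 CPM in control libraries 1 to 4. Both low control libraries held Xist, and the other control libraries reached the top of the CYR61 range. For Apoe the log2 fold change was 0.26 ± 0.24 (SE; interval -0.26 to 0.78; edgeR adjusted p = 0.996).

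Srebf2 encodes SREBP-2, the factor that drives cholesterol synthesis genes. Its values were 108.6, 98.1, 124.5 and 116.8 CPM in CYR61 libraries 1 to 4 and 132.1, 96.8, 80.7 and 94.7 CPM in control libraries 1 to 4. Control library 1 was above every CYR61 library and the other control libraries were below them all. The log2 fold change was 0.17 ± 0.19 (SE; interval -0.24 to 0.57), and it did not pass the test.

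Insig1 encodes the endoplasmic reticulum protein that holds back SREBP processing when sterols are high, and it is itself an SREBP target. It measured 62.4, 52.2, 38.3 and 44.7 CPM in CYR61 libraries 1 to 4, against 68.1, 67.1, 65.3 and 62.8 CPM in control libraries 1 to 4. Every CYR61 library lay below every control library in CPM, by less than 1 CPM at the nearest pair. The same held for 235 of the 10422 genes (2.25%), and after TMM scaling Insig1 overlapped between the groups. With barcodes not limited to their home library the CPM ranges overlapped too. CYR61 library 1 then held 61.0 CPM, against 58.3 and 55.0 CPM in control libraries 2 and 4. In home-library cells the log2 fold change of Insig1 was -0.37 ± 0.21 (SE; interval -0.82 to 0.08; edgeR adjusted p = 0.909).

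Hmgcs1 encodes the cytosolic HMG-CoA synthase, an early enzyme of the pathway. Its levels were 279.1, 227.3, 201 and 195.7 CPM in CYR61 libraries 1 to 4 and 300.3, 250.5, 239.8 and 244.3 CPM in control libraries 1 to 4. Only CYR61 library 1 reached the range of the controls, and the log2 fold change was -0.16 ± 0.17 (SE; interval -0.53 to 0.20), short of the threshold.

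Sqle encodes squalene epoxidase, a rate-limiting step late in the pathway. It measured 94.5, 79.8, 46.1 and 56.7 CPM in CYR61 libraries 1 to 4, against 92, 96.8, 80.7 and 52.9 CPM in control libraries 1 to 4. The groups overlapped over nearly their whole range, with a log2 fold change of -0.17 ± 0.26 (SE; interval -0.72 to 0.39).

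**Figure D1:**
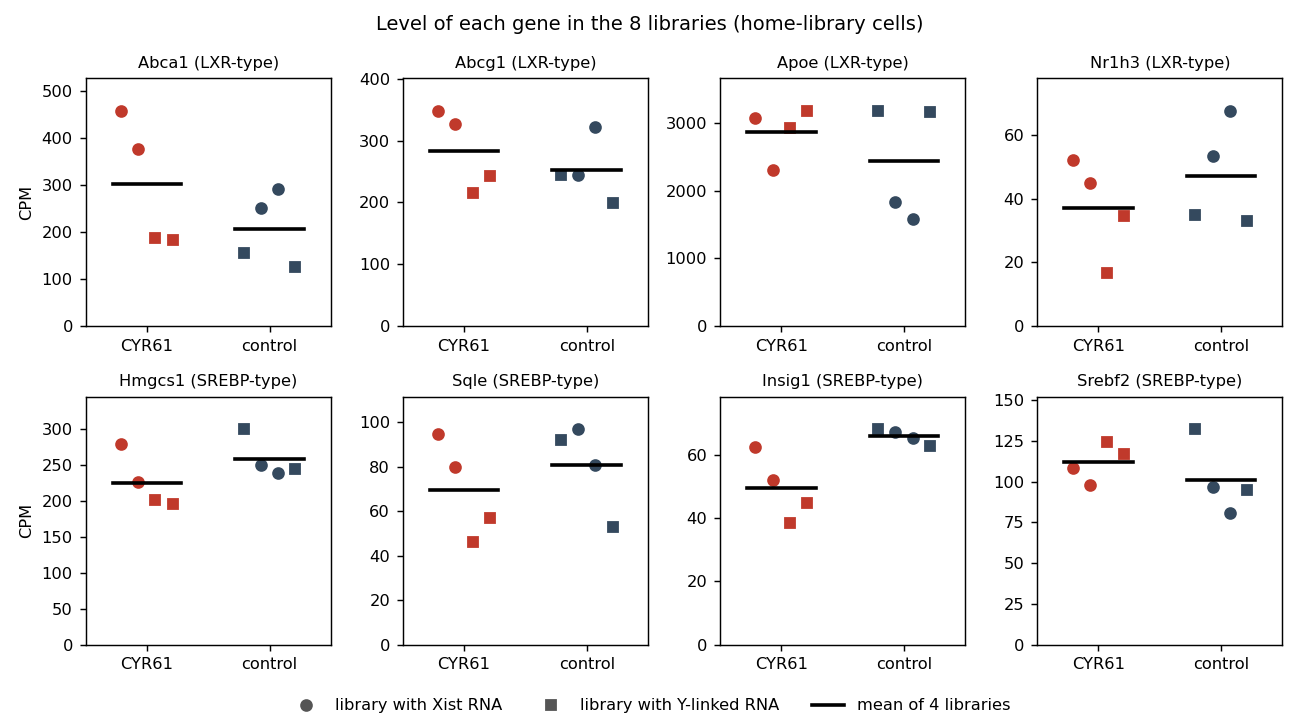
Level in CPM (vertical axis, from 0) of each of the 8 genes in the 4 CYR61 and 4 control libraries; each point is a library, circles hold Xist RNA, squares Y-linked RNA, and bars are means. Insig1 is the gene whose CYR61 points (38.3 to 62.4 CPM) all lie below the control points (62.8 to 68.1 CPM), and the circles lie above the squares for Abca1 and Nr1h3.

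A summed level cannot tell fewer cells of a type from less RNA per cell, so the share of cells with a UMI was read beside it at equal depth. For a gene found in few cells, that share cannot tell them apart either. Each cell with at least 1000 UMIs was thinned to 1000, which kept 5218 home-library cells and left out 3978. Abca1 was then detected in 23.7% ± 7.43 of cells in CYR61 libraries and in 14.3% ± 4.80 in control libraries (SD, n = 4 each), with ranges of 17.2% to 31.3% and 9.5% to 20.1% that overlapped. Without thinning the ranges were 19.6% to 45.5% with CYR61 and 17.96% to 29.9% in controls. Apoe was detected in 86.8% ± 2.24 of thinned cells with CYR61 and in 80.8% ± 13.0 in controls. For Sqle the mean share was higher with CYR61, at 6.19% ± 1.61 against 5.15% ± 3.45, although its mean CPM was lower. For Abcg1, Nr1h3, Hmgcs1, Insig1 and Srebf2 the mean share differed in the direction of the mean CPM. These differences in share were not tested.

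Cells rich in neutrophil granule RNA served as a check on RNA shared between cells, since neutrophils are not known as a source of Apoe. They were defined, after the values were seen, by at least 3 granule markers and at least 1% of UMIs from those genes, and only 38 cells met this. Apoe measured 1237 CPM in their sum, against 2696 CPM in the other cells. The macrophage markers Csf1r, Adgre1, Cd68 and Lyz2 measured 121.8, 215.5, 337.2 and 7682 CPM there, against 458.7, 601.1, 923.8 and 8011 CPM in the other cells. Itgam was higher there, at 2586 against 1415 CPM, and C1qa had 0 UMIs. Doublets were left in, and whether doublets with macrophages or shared RNA gave these values was not tested. After thinning, 22 of 27 neutrophil-rich cells had an Apoe UMI (81.5%, 95% Wilson interval 63.3% to 91.8%), against 85.7% of the other cells. The median UMI count before thinning was 2495 in these 27 cells and 2780 in the others. The share of cells with an Apoe UMI was thus not above that background and is not read as the share that express it. For Abca1 the shares were 1 of 27 (3.70%, interval 0.657% to 18.3%) against 25.1%, and for Abcg1 0 of 27 (interval 0 to 12.5%) against 24.0%. The intervals cover counting error only.

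Within each kind of library the order of Abca1 was the same. Among libraries with Xist it measured 459 and 378.3 CPM with CYR61, against 252.2 and 292 CPM in controls. Among libraries with Y-linked RNA it measured 188 and 183.2 CPM with CYR61, against 154.8 and 126.6 CPM in controls. With the kind of library as a term in the fit, the log2 fold change of Abca1 was 0.54 ± 0.14 (SE; interval 0.25 to 0.83), and its edgeR adjusted p of 0.0574 did not pass. That fit called none of the 8 genes and 231 of 10422 genes (2.22%). In it, 3 of the 8 (Abca1, Apoe and Insig1) had an unadjusted edgeR p under 0.05, against 11.7% of all genes. Insig1 was lower with CYR61 within each kind as well, at 62.4 and 52.2 CPM against 67.1 and 65.3 CPM with Xist, and at 38.3 and 44.7 CPM against 68.1 and 62.8 CPM with Y-linked RNA (log2 fold change -0.39 ± 0.18, SE; edgeR adjusted p = 0.423). With barcodes not limited to their home library, the Xist libraries of the groups overlapped for Insig1. Apoe lay above its controls with CYR61 in the Xist libraries, at 3072 and 2309 CPM against 1840 and 1586 CPM, and just overlapped them in the Y libraries, at 2934 and 3175 CPM against 3184 and 3164 CPM.

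**Figure D2:**
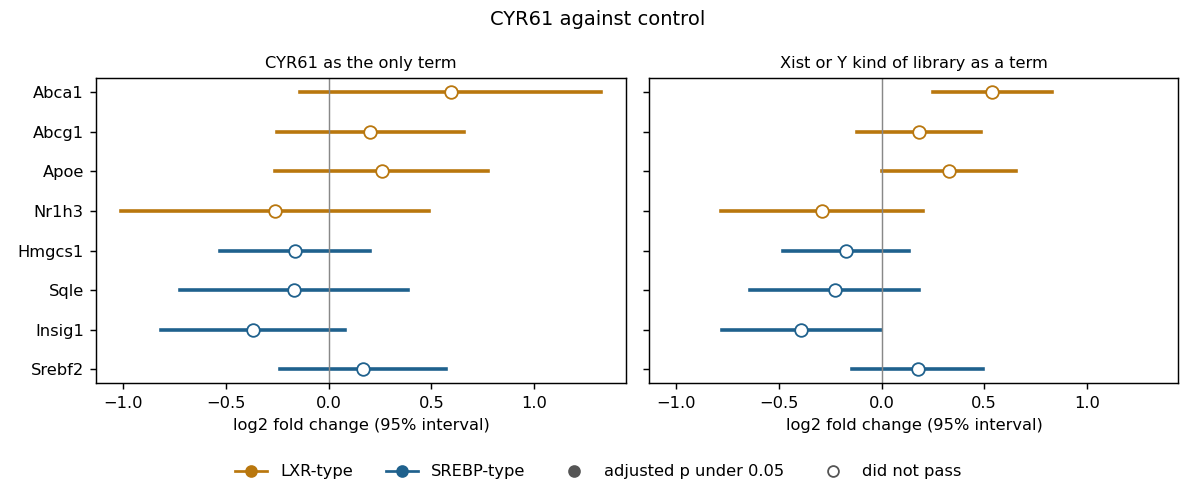
Log2 fold change of CYR61 over control (horizontal axis) with its 95% interval for the 8 genes, with CYR61 as the only term (left) and with the Xist or Y kind of library added (right); open points did not pass an adjusted p of 0.05. No point passed on either side, and the interval of Abca1 runs from -0.14 to 1.33 on the left and from 0.25 to 0.83 on the right.

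Abca1 and Nr1h3 were higher in every library with Xist than in every library with Y-linked RNA. Abca1 averaged 345.4 ± 92.3 CPM in the Xist libraries and 163.1 ± 28.4 CPM in the Y libraries, and Nr1h3 54.6 ± 9.45 and 29.7 ± 8.83 CPM (SD, n = 4 each). These are 2 of the 8 genes, and 1093 of 10422 genes (10.5%) had the same separation. None of the 8 was lower in every Xist library, as 9.12% of genes were. Neutrophil markers also split this way, at 292 to 650 CPM in the Xist libraries and 1000 to 1799 CPM in the Y libraries, as did macrophage markers, at 9424 to 11990 CPM with Xist and 13350 to 16470 CPM with Y-linked RNA, and megakaryocyte or platelet markers, at 371.5 to 709 CPM with Xist and 755.7 to 1359 CPM with Y-linked RNA. Their part in the split of Abca1 and Nr1h3 was not tested. Without cells holding at least 3 neutrophil markers, the CYR61 log2 fold change of Abca1 was 0.61 ± 0.34 (SE) and that of Nr1h3 -0.15 ± 0.43. Across all 8 libraries Abca1 spanned a 4.26-fold range and Nr1h3 a 4.10-fold range, while Hmgcs1 and Srebf2 spanned 1.62-fold each.

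The date stamps divide the libraries another way, with replicates 1 and 2 of both groups on the earlier date. No gene of the 8 was called for a difference of the CYR61 effect between dates in edgeR, and none of 11665 genes tested was (0%), with 1150 genes and 2 of the 8 at an unadjusted p under 0.05. DESeq2 called 34 genes and none of the 8. Those at an unadjusted p under 0.05 were Abca1, whose effect was 1.36 lower at the later date on the log2 scale (-1.36 ± 0.48, SE; edgeR adjusted p = 0.441), and Abcg1 (-0.78 ± 0.34; edgeR adjusted p = 0.497). On the earlier date alone, Abca1 had a log2 fold change of 1.19 ± 0.24 (SE; edgeR adjusted p = 0.0806), and on the later date alone -0.20 ± 0.37. Both CYR61 libraries of the earlier date held Xist and both of the later date held Y-linked RNA, so date and kind cannot be told apart in the CYR61 group.

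The balance of the sets was described as the mean log2 CPM of the LXR-type genes minus that of the SREBP-type genes. The regulators Nr1h3 and Srebf2 are included, so it is not a balance of the readout genes alone. This balance is read only between libraries because it mixes genes of different length. It was 1.79, 1.78, 1.37 and 1.60 in CYR61 libraries 1 to 4, against 1.02, 1.31, 1.65 and 1.27 in control libraries 1 to 4. The mean was 1.63 ± 0.20 with CYR61 and 1.32 ± 0.26 in controls (SD, n = 4 each), and the ranges overlapped. On this scale, set by TMM without the filter on low counts, most of the difference of 0.32 lay in the LXR-type mean. That mean was 8.29 ± 0.51 with CYR61 and 7.99 ± 0.22 in controls. The SREBP-type mean was 6.65 ± 0.32 with CYR61 and 6.68 ± 0.19 in controls. In the main fit, scaled after the filter, the median log2 fold change was 0.23 for the LXR-type and -0.17 for the SREBP-type genes. Nr1h3 (-0.26) and Srebf2 (0.17) had the sign opposite to the median of their set. The share of each set in the difference thus depends on the scaling.

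**Figure D3:**
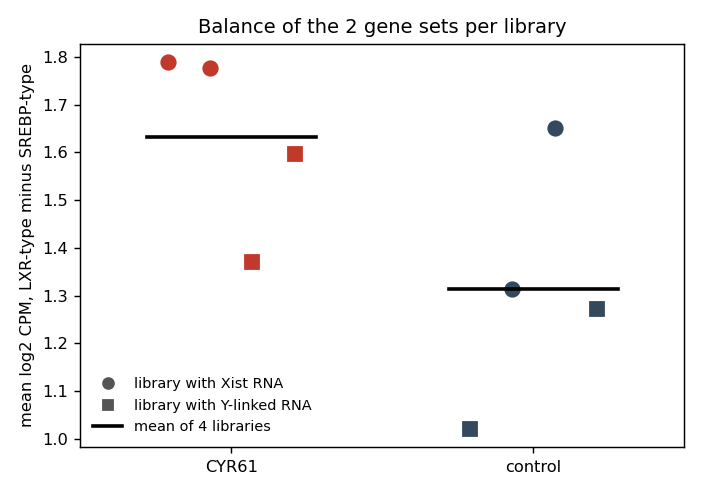
Mean log2 CPM of the 4 LXR-type genes minus that of the 4 SREBP-type genes (vertical axis, not from 0) in each CYR61 and control library; circles hold Xist RNA, squares Y-linked RNA, and bars are group means. The CYR61 libraries run from 1.37 to 1.79 and the control libraries from 1.02 to 1.65, so the groups overlap.

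The genes of most similar pattern were sought among 3774 genes with a mean of at least 50 CPM, by the root mean square difference of centred log2 CPM over the 8 libraries. Nearest to the LXR-type mean were Fgd4 (0.0885), Ap1s2 (0.0934), Rab8b (0.102), Actr3 (0.107) and Map2k4 (0.121), against a median of 0.382 over the genes compared. The LXR-type genes themselves lay at 0.0886 for Abcg1, 0.362 for Abca1, 0.397 for Nr1h3 and 0.536 for Apoe, so Apoe ran farthest from its own set. Nearest to the SREBP-type mean were Arf1 (0.0741), Slc43a2 (0.0773), Pitpnc1 (0.0804), Usp48 (0.0914) and Suds3 (0.0966), against a median of 0.333. Hmgcs1 lay at 0.0680, Insig1 at 0.162, Sqle at 0.229 and Srebf2 at 0.289.

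The wider pathway was read in 7 lists of 95 genes together, of which 84 were tested. In the CYR61 comparison 1 of the 84 rose and none fell, and 12 had an unadjusted p under 0.05, against 1.16% of all genes called and 646 of 10422 (6.20%) at an unadjusted p under 0.05. Among the 19 cholesterol synthesis enzymes tested, 14 lay below 0 and 5 above it on the log2 scale (median -0.17, against -0.02 over all genes), and none passed. Cyp51, the lanosterol demethylase, averaged 150.6 CPM with CYR61 and 192.1 CPM in controls (log2 fold change -0.30 ± 0.30, SE). In the LXR list, 12 of 20 were positive, with a median of 0.15, and Lpl, the lipase that frees fatty acids from lipoproteins, averaged 9376 CPM with CYR61 and 11250 CPM in controls (-0.24 ± 0.16). The lists of SREBP regulation (13 tested, median -0.0044), oxysterol metabolism (3 tested, median 0.03) and fatty acid synthesis (10 tested, median -0.24) had no gene that passed. Of these, Pgrmc1 had a log2 fold change of -0.19 ± 0.18, Scd2, a fatty acid desaturase, of -0.38 ± 0.23 and Acly, the ATP citrate lyase, of 0.0046 ± 0.19 (SE). Hsd3b7 had -0.43 ± 0.32 and Cyp27a1, the sterol 27-hydroxylase, 0.03 ± 0.37.

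The gene that rose was Marco, a scavenger receptor for modified lipoproteins and particles. It measured 28.8, 30.2, 9.57 and 75.4 CPM in CYR61 libraries 1 to 4, against 0.582, 6.79, 4.75 and 0 CPM in control libraries 1 to 4. Every CYR61 library was above every control library, but the control libraries held only 2, 8, 4 and 0 UMIs of it. The log2 fold change was 3.86 ± 0.82 (SE; interval 2.09 to 5.63; edgeR adjusted p = 0.0415). It was higher with CYR61 under all 20 other settings in which it was tested and passed in 9 of them. It did not pass without CYR61 library 1 (adjusted p = 0.0538) or 4 (0.221), or without control library 1 (0.193), 3 (0.0890) or 4 (0.110) in edgeR. With barcodes not limited to their home library its log2 fold change was 1.51 (edgeR adjusted p = 0.9999), and without cells holding neutrophil markers it was 3.22 (0.0689). With a replicate block it was 3.70 (0.0785), with at most 10% mitochondrial UMIs 3.89 (0.0580), on the earlier date alone 3.71 (0.0804) and on the later date alone 4.23 (0.215), by edgeR adjusted p.

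Other uptake receptors did not pass. Cd36, a receptor for oxidized LDL and fatty acids, measured 4074, 3961, 3024 and 2669 CPM in CYR61 libraries 1 to 4, against 4708, 5022, 7040 and 3165 CPM in control libraries 1 to 4 (log2 fold change -0.51 ± 0.24, SE; edgeR adjusted p = 0.820). The scavenger receptor gene Msr1 averaged 1189 CPM with CYR61 and 1117 CPM in controls (0.12 ± 0.19). In the trafficking list 8 of 14 were positive, with a median of 0.03, and none passed. Npc2, which carries cholesterol out of the lysosome, measured 2052, 2035, 3273 and 2988 CPM in CYR61 libraries 1 to 4, against 1773, 1234, 1446 and 1753 CPM in control libraries 1 to 4. All 4 CYR61 libraries lay above all 4 controls, as did those of 299 of 10422 genes (2.87%), yet the log2 fold change of 0.76 ± 0.21 (SE) had an edgeR adjusted p of 0.210. With barcodes not limited to their home library the groups overlapped for Npc2, from 2002 CPM with CYR61 and up to 2058 CPM in controls. Lipa, the lysosomal acid lipase, averaged 2548 CPM with CYR61 and 2897 CPM in controls (-0.16 ± 0.17).

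The second question was whether the genes differ between dividing cells and the others of the same library, since new membrane needs sterol. Cells with a UMI of at least 3 of 21 mitotic markers, such as Top2a and Mki67, were set against all other home-library cells in 7 libraries. CYR61 library 3 had only 14 such cells and was left out. The markers, which made the sets, were not removed from the genes tested, so shares over all genes include them. Apoe was lower in mitotic-marker cells and was the only gene of the 8 that passed, 1 of 8 against 498 of 8620 genes in either direction (5.78%) and 166 in the lower direction (1.93%). Its level was 2404, 1984 and 2437 CPM in mitotic-marker cells of CYR61 libraries 1, 2 and 4, against 3412, 2509 and 3440 CPM in their other cells. In control libraries 1 to 4 it was 2813, 1710, 1588 and 2569 CPM in mitotic-marker cells, against 3364, 2129, 1584 and 3357 CPM in other cells. It was lower in 6 of the 7 libraries and equal within 4 CPM in control library 3. After TMM scaling, the log2 fold change was -0.53 ± 0.06 (SE), a level 0.692 times that of other cells (interval 0.635 to 0.754; edgeR adjusted p = 6.1e-08). With library size alone, the scale of the CPM values above, it was smaller, at -0.33 ± 0.06 (SE). That is a level 0.796 times that of other cells (interval 0.733 to 0.865; edgeR adjusted p = 0.0001015).

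The other LXR-type genes had negative values that did not pass. The log2 fold change was -0.34 ± 0.13 for Nr1h3 (SE; edgeR adjusted p = 0.151), -0.22 ± 0.07 for Abcg1 (0.0733) and -0.19 ± 0.08 for Abca1 (0.186). In plain CPM, Abca1 and Abcg1 were each higher in mitotic-marker cells in 4 of 7 libraries, for example 320.9 CPM of Abca1 against 275.5 CPM in other cells of control library 3. The fits use TMM scaling: with library size alone the median log2 fold change over all genes was 0.17, and Abca1 was then at -0.0047 and Abcg1 at -0.03. The SREBP-type genes had log2 fold changes of -0.13 ± 0.07 for Hmgcs1, -0.09 ± 0.09 for Sqle, -0.06 ± 0.11 for Insig1 and 0.05 ± 0.09 for Srebf2 (SE). With library size alone they were 0.06, 0.09, 0.12 and 0.22, the last with an edgeR adjusted p of 0.0912 (unadjusted 0.0207). By plain CPM, Sqle, Insig1 and Srebf2 were each higher in mitotic-marker cells in 5 of 7 libraries, and Hmgcs1 in 4. None of the 4 passed under either scaling. No higher level of synthesis genes in mitotic-marker cells passed the test, and the sign for Hmgcs1, Sqle and Insig1 depended on the scaling.

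**Figure D4:**
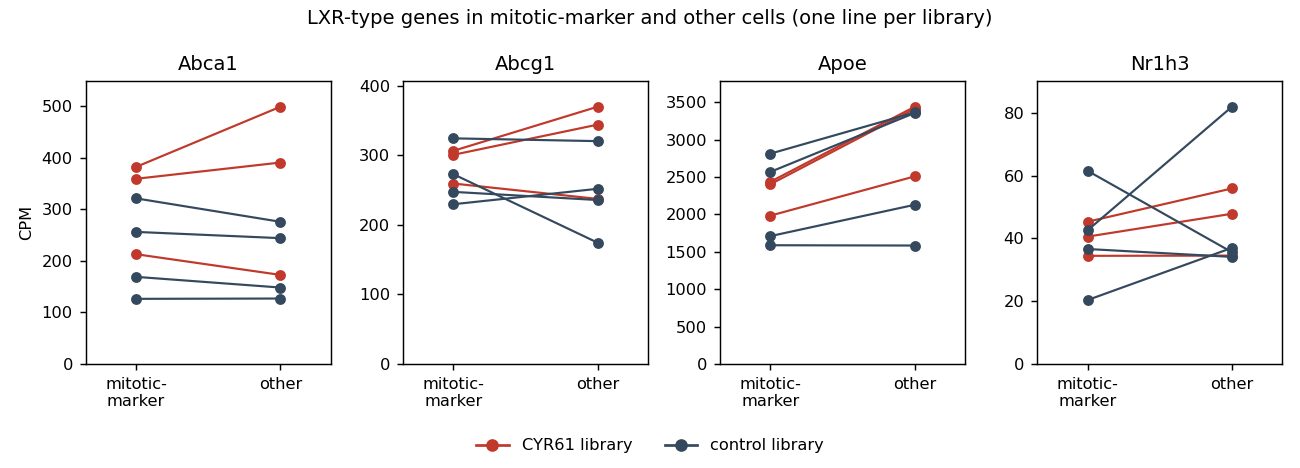
Level in CPM (vertical axis, from 0) of the 4 LXR-type genes in mitotic-marker cells (left of each panel) and in other cells (right), with a line for each of 7 libraries, red for CYR61 and dark for control. The Apoe lines lie lower on the left in 6 of 7 libraries, and those of Abca1, Abcg1 and Nr1h3 run in both directions.

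Mitotic-marker cells were also deeper, which bears on the sets. Their median was 8557, 5026 and 17260 UMIs in CYR61 libraries 1, 2 and 4, against 1039, 1304 and 774 UMIs in other cells. In control libraries 1 to 4 it was 11200, 2064, 5846 and 1802 UMIs, against 879.5, 886, 945 and 1120 UMIs. The comparison was therefore repeated, as a choice made after the values were seen, in cells with at least 5000 UMIs, for which 4 libraries had 20 cells in each set. There Apoe (log2 fold change -0.34 ± 0.05, SE; edgeR adjusted p = 0.00017) and Abcg1 (-0.32 ± 0.07; 0.0128) were lower, 2 of 8 against 160 of 10177 genes lower (1.57%) and 5.45% called in either direction. Depth still differed in these cells, with medians of 11601 to 19798.5 UMIs in mitotic-marker cells and 8658 to 11520 UMIs in other cells of the 4 libraries.

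With every such cell thinned to 5000 UMIs before the sets were made, 3 libraries remained, CYR61 libraries 1 and 2 and control library 2, which all hold Xist. Abca1 (-0.50 ± 0.10, SE; edgeR adjusted p = 0.000416), Abcg1 (-0.60 ± 0.11; 0.000119), Apoe (-0.34 ± 0.09; 0.0122) and Hmgcs1 (-0.51 ± 0.12; 0.00252) were then lower in mitotic-marker cells. That is 4 of 8 genes, against 227 of 7962 genes lower (2.85%) and 9.37% called in either direction. Nr1h3 (-0.46 ± 0.26; edgeR adjusted p = 0.346), Sqle (-0.09 ± 0.17), Insig1 (0.02 ± 0.20) and Srebf2 (0.04 ± 0.16) did not pass. The call of Apoe was thus present in all of these cell sets, and those of Abca1, Abcg1 and Hmgcs1 in some of them.

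**Figure D5:**
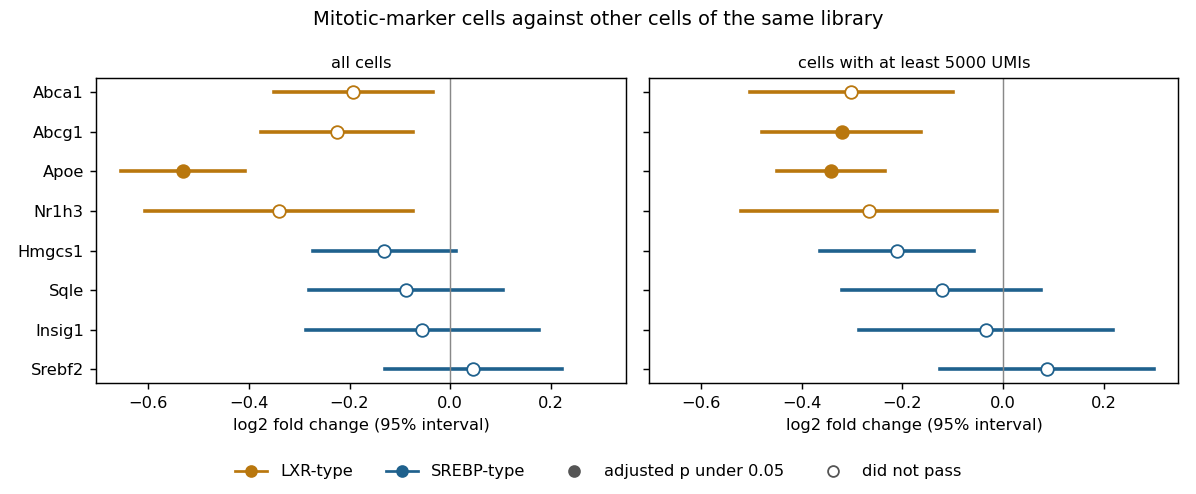
Log2 fold change of mitotic-marker cells over other cells (horizontal axis) with its 95% interval for the 8 genes, in all home-library cells of 7 libraries (left) and in cells with at least 5000 UMIs of 4 libraries (right); filled points passed an adjusted p of 0.05. Apoe is filled on both sides (-0.53 and -0.34), and Abcg1 on the right (-0.32).

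Among the 80 list genes tested in this comparison, 6 fell and 2 rose in mitotic-marker cells, against 1.93% of all genes called lower and 5.78% called in either direction. Of the LXR list, 4 of 19 fell, with a list median of -0.19 against -0.0018 over all genes. Besides Apoe these were Lpl (-0.34 ± 0.07, SE; edgeR adjusted p = 0.000975), Smpdl3a, a phosphodiesterase (-0.20 ± 0.06; 0.0351), and Mertk, the receptor for dying cells (-0.26 ± 0.08; 0.0416). Npc2 (-0.29 ± 0.06; 0.000386) and Cd36 (-0.26 ± 0.07; 0.012) also fell. Marco (0.77 ± 0.21; 0.0219) and Erlin1, an endoplasmic reticulum protein that restrains SREBP (0.58 ± 0.14; 0.00804), rose. None of the 18 synthesis enzymes tested passed, with a median of -0.02. These list values are from the TMM fit over all cells. With library size alone the median over all genes was 0.17, and 46 genes were called lower in place of 166. Apart from the 8 genes, the list genes were not read under that scaling or at equal depth.

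The third comparison asked whether the genes differ between cells that hold more and less RNA of the type I interferon response. Within each CYR61 library, cells with at least 1000 UMIs were divided at the median share of UMIs from an interferon list, so each set is a range of a score and not a cell type. The sets held 558 interferon-rich and 559 interferon-poor cells in CYR61 library 1, 1244 each in library 2, 97 each in library 3 and 201 each in library 4. None of the 8 genes passed, against 252 of 10407 genes (2.42%), and 1 of 8 had an unadjusted p under 0.05. That was Abca1, at 497.9, 396.7, 226.4 and 194.9 CPM in interferon-rich cells of libraries 1 to 4, against 437.5, 372.5, 151.6 and 182.6 CPM in interferon-poor cells. It was higher in all 4 libraries by a log2 fold change of 0.14 ± 0.06 (SE; interval 0.0029 to 0.27; edgeR adjusted p = 0.544). Apoe (0.03 ± 0.04) and Nr1h3 (0.03 ± 0.13) had intervals within -0.06 to 0.12 and -0.23 to 0.29. Abcg1 had -0.06 ± 0.07, Insig1 0.13 ± 0.11, Srebf2 0.0034 ± 0.09, Hmgcs1 -0.02 ± 0.08 and Sqle -0.06 ± 0.10.

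Genes of the interferon list, which made the sets, were not removed from the genes behind the 2.42% called over all genes. Of the 84 list genes, 2 rose with the interferon share and none fell. That is near the 2.42%, so the count is no result about the lists. They were Marco (log2 fold change 0.94 ± 0.22, SE; edgeR adjusted p = 0.0137) and Cd5l, an LXR target that keeps macrophages alive (0.40 ± 0.10; 0.0271). Within 10% of the dividing share lay 178, 431, 42 and 74 cells of libraries 1 to 4. Interferon-rich cells were deeper, with medians of 3899, 3142, 1992 and 5468 UMIs, against 3204, 2446, 1765 and 2479 UMIs in interferon-poor cells.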

How the data were processed

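Single-cell RNA was measured in 4 CYR61 and 4 control libraries. The deposited tables hold UMI counts per gene and barcode, 5000 barcodes each; the build is mm10, per the submitters' processing notes, while aligner, counter and cell calling are not named by any source used here. Counts were summed per library, or per library and cell set, over home-library cells. All genes were tested with edgeR 4.0.16 in R 4.3.3 (TMM, filterByExpr, quasi-likelihood, Benjamini-Hochberg adjusted p under 0.05), with the library as a block between cell sets; DESeq2 1.42.0 was run beside it. Log2 CPM used a prior count of 2. Doublets were left in. In counts simulated for the CYR61 comparison on 10422 genes, 82% of 4-fold and 27% of 2-fold changes were recovered. The 8 genes and all lists were chosen with earlier results of these data known. From each list the text names called genes (up to 4 a direction, smallest p) and up to 2 uncalled genes of highest CPM; some genes are not reported here.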

Additional observations from a re-analysis of the deposited data

How the results depend on the processing

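The count of the 8 genes called stayed at 0 under all 21 other settings for CYR61 against control and all 8 for interferon-rich against interferon-poor cells. For the date interaction it was 0, and 1 without the filter on low counts (Abca1, -1.46, edgeR adjusted p = 0.0302). For mitotic-marker cells it was 1, and 2 without the filter (Abcg1 added), 3 with at least 5 markers (Abca1 and Abcg1 added), 2 in cells with at least 5000 UMIs and 4 in cells thinned to 5000 UMIs. Leaving out a library gave 1 to 2 calls, with Abcg1 added without CYR61 library 4 (edgeR adjusted p = 0.0390) or control library 4 (0.00799). Apoe passed in all 14 settings (edgeR or its variants), from -0.61 to -0.33. The difference in balance ran from 0.22 to 0.43.

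Of 368 other values of single genes, 326 kept their direction and side of the threshold, 10 came to pass it and 32 changed sign, none of those called; the causes were not tested. In CYR61 against control, on the earlier date alone, Nr1h3 was 0.31, Sqle 0.0079 and Srebf2 -0.051 (log2), and on the later date alone Abca1 was -0.20 and Abcg1 -0.21. With barcodes listed in a single table Nr1h3 was 0.20. Leaving out each library gave -0.45 to 0.020 for Nr1h3 and -0.34 to 0.035 for Sqle, positive without CYR61 library 3. In mitotic-marker cells, with at least 2 markers Insig1 was 0.0036 and Srebf2 -0.014; thinned to 5000 UMIs Insig1 was 0.015; with library size alone Hmgcs1 was 0.058, Sqle 0.086 and Insig1 0.12. Leaving out each library gave -0.13 to 0.010 for Insig1 and -0.044 to 0.082 for Srebf2. In interferon-rich cells, with a cut at the upper quartile Hmgcs1 was 0.14 and Srebf2 -0.023; thinned to 1000 UMIs Apoe was -0.057, Nr1h3 -0.087, Hmgcs1 0.16 and Insig1 -0.0011; Hmgcs1 was 0.0059 without the filter and 0.0040 with library size alone. Leaving out each library gave -0.0043 to 0.070 for Apoe, -0.075 to 0.091 for Hmgcs1, -0.045 to 0.099 for Srebf2 and -0.086 to 0.018 for Abcg1.

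Same-numbered libraries deviated together in 2 of 4 pairs (replicates 2 and 4, correlations 0.325 and 0.318) and not in the others (-0.20 and -0.09). Pairs 2 and 4 each share a kind, Xist or Y, and pairs 1 and 3 do not. Every CYR61 and control library of the same kind correlated positively, from 0.0756 to 0.334. Those of different kinds all correlated negatively, from -0.362 to -0.0903. The sign thus followed the kind and does not bear on the numbers, which were not taken as pairs. CYR61 libraries 2 and 4 each correlated best with the control library of their own number. Control library 2, however, correlated best with CYR61 library 1 (0.334). With a replicate block edgeR called 112 genes in place of 121, and 0 of the 8 genes (Abca1 0.56, edgeR adjusted p = 0.880), and Marco lost its call (0.0785). All genes called by CYR61 numbered 121, against 0 with barcodes not limited to their home library, 216 by DESeq2, 239 without the filter, 231 with kind as a term and 74 without CYR61 library 4. The low power at 2-fold limits the CYR61 comparison: the interval of Abca1 reaches 2.51-fold, and Insig1, Sqle and Nr1h3 rest on as few as 44, 53 and 19 UMIs in CYR61 library 3.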
